A study of Mus musculus with 6 samples.

Results

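B1 elements are the short interspersed elements (SINEs) of rodents that the repeat annotation places in the Alu family, together with their primate counterparts. RNA assigned to them was compared between mouse embryonic fibroblasts lacking β-actin (KO) and wild-type (WT) fibroblasts. The members were all rows of class SINE and family Alu in the deposited repeat counts, 16 of 1336 rows. They were defined by their class and family, in a choice made with earlier results of these data known. All 16 had enough counts to be tested, as did 1193 rows in all. The KO cells are homozygous for loss of Actb (Actb-/-), which encodes β-actin, a protein of the cytoskeleton and the nucleus, and the WT cells carry it. Both genotypes are fibroblasts of strain BALB/c from embryos of 10.5 days, in 3 biological replicates each, with total RNA taken through a TruSeq Ribo-Zero kit that removes ribosomal RNA (rRNA). The deposited rows hold repeats and structural RNA without protein-coding genes, so neither Actb RNA nor fibroblast markers were analysed here.

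B1 arose from a copy of the gene of 7SL RNA, the RNA of the signal recognition particle, which guides secreted proteins to the endoplasmic reticulum. Like that gene, a B1 copy carries an internal promoter for RNA polymerase III. It makes no protein and depends on the enzymes of LINE-1 elements to be copied. Many B1 copies lie in or near genes, so their sequence is also carried inside introns and untranslated regions of RNA polymerase II transcripts. The counts were summed over all copies of a subfamily, and RNA that starts in a B1 copy cannot be told apart from RNA that reads through one.

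The 16 rows were ordered by the age that their names stand for. B1_Mm, B1_Mus1 and B1_Mus2 are young subfamilies, named for the genus Mus. B1_Mur1 to B1_Mur4 are older and named for the murid rodents. B1F, B1F1 and B1F2 are older again, and PB1, PB1D7, PB1D9, PB1D10 and PB1D11 are the proto-B1 monomers from which B1 descended. FAM, a fossil Alu monomer, was kept apart because its name puts it in no B1 age set.

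Library totals ran from 7708630 to 19288620 counts, most of the spread being rRNA that escaped removal. It filled 84.8%, 52.9% and 77.0% of the counts in KO replicates 1, 2 and 3, against 32.4%, 84.1% and 73.7% in WT replicates 1, 2 and 3. The family was deeply covered: it held 260196, 530837 and 387213 counts in KO replicates 1, 2 and 3, against 650944, 258491 and 427501 in WT replicates 1, 2 and 3. The row with the fewest counts, FAM, had between 436 and 1272 counts in a library. Levels below are normalized CPM, the counts scaled to a common effective library size that the trimmed mean of M-values (TMM) sets from the bulk of repeat rows. They are relative to the other repeats, and a change shared by all repeats would not be seen.

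No B1 subfamily changed past the threshold in KO cells, and each of the 16 rows had a fitted level slightly under its WT level. In edgeR's quasi-likelihood test, 0 of 16 rows had a Benjamini-Hochberg adjusted p under 0.05, beside 5.78% of all 1193 rows tested, or 3.6% counting falls alone. At an unadjusted p under 0.05 the count was again 0 of 16, beside 20.9% of all rows. DESeq2 called 0 of 16, beside 6.45% of all rows, and limma-voom 0 of 16, beside 5.28%. At an unadjusted p under 0.05, DESeq2 had 2 of 16, beside 17.4% of all rows, and limma-voom 4 of 16, beside 21.9%. All 16 log2 fold changes lay below 0, where 47.7% of all rows did, and their median was -0.10 against 0.01 for all rows. Scaled by total counts in place of TMM, the median of all rows was -0.36 and that of the 16 rows -0.44. On that scale all 16 also lay below 0, and 15 of 16, PB1D9 being the exception, lay below the median of all rows. B1 rows are related sequences, and the sources used here do not say how a read that fits several of them was shared out, so their common direction is not 16 separate observations.

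**Figure D1:**
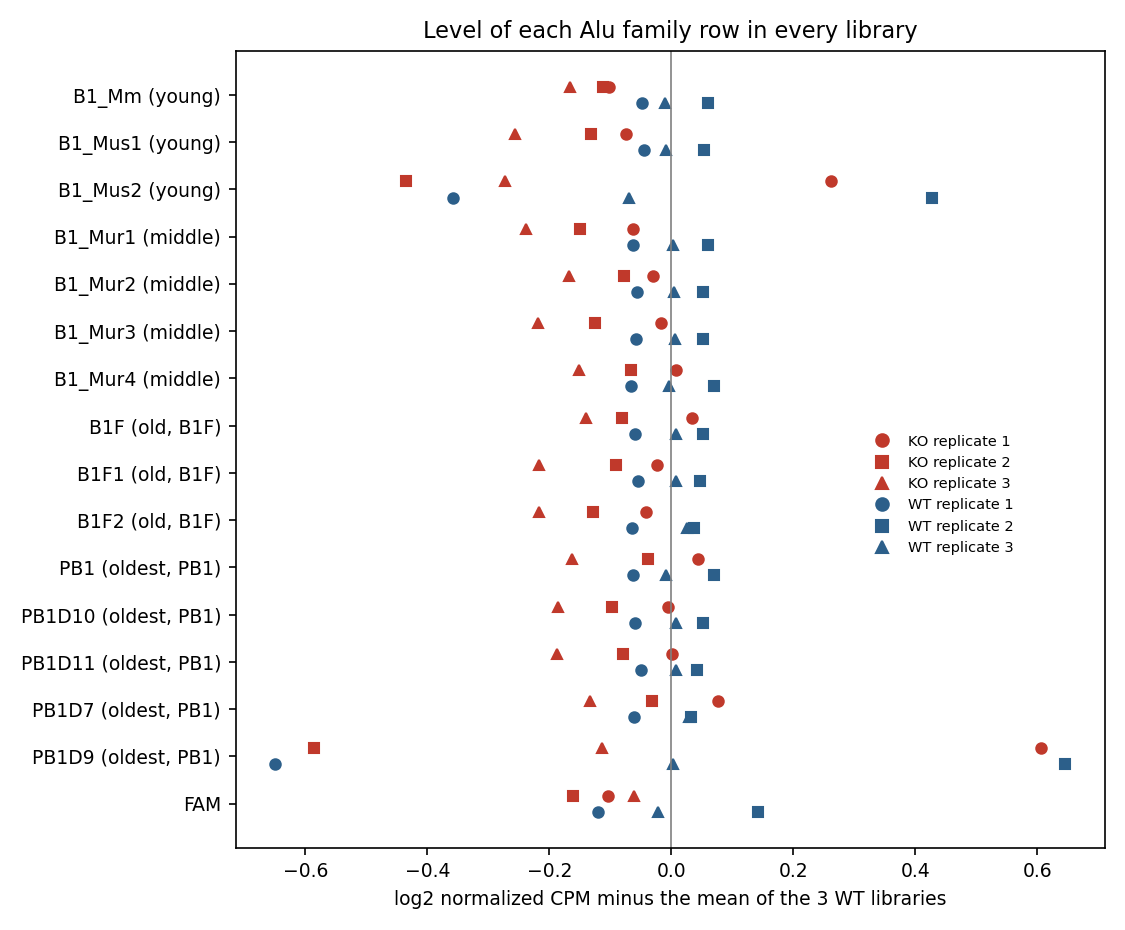
Each point is 1 library, placed by its log2 normalized CPM minus the mean of the 3 WT libraries for that row; KO libraries are drawn above WT libraries in each row. In B1_Mm and B1_Mus1 all KO libraries lie left of all WT libraries, in the other 14 rows the groups overlap, and B1_Mus2 and PB1D9 spread far more widely than the rest.

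Among the young subfamilies, B1_Mm and B1_Mus1 were the only 2 rows of the family whose KO libraries all lay below the WT libraries. This is 2 of 16 rows, beside 13.4% of all rows tested. B1_Mm, the subfamily of the youngest mouse copies, stood at 968, 962 and 926 normalized CPM in KO replicates 1, 2 and 3, against 1005, 1083 and 1031 in WT replicates 1, 2 and 3. The highest KO library was close under the lowest WT library, and its log2 fold change, -0.13 ± 0.07 (SE), missed the threshold (edgeR adjusted p = 0.381). B1_Mus1 stood at 3041, 2923 and 2681 normalized CPM in KO replicates 1, 2 and 3, against 3104, 3322 and 3181 in WT replicates 1, 2 and 3. Here too the groups were apart by less than the range within either genotype, and the log2 fold change was -0.15 ± 0.10 (SE; edgeR adjusted p = 0.441). The 95% interval of the KO over WT ratio was 0.815 to 1.03 for B1_Mm and 0.767 to 1.06 for B1_Mus1. Both intervals include no change.

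The libraries of the genotypes overlapped in all 4 murid rows. B1_Mur1 was lowest among them, at a log2 fold change of -0.15 ± 0.09 (SE; edgeR adjusted p = 0.425). It stood at 2219, 2089 and 1964 normalized CPM in KO replicates 1, 2 and 3, against 2217, 2417 and 2321 in WT replicates 1, 2 and 3. KO replicate 1 and WT replicate 1 were nearly equal, and they were the libraries that closed the gap. B1_Mur2, B1_Mur3 and B1_Mur4 had log2 fold changes of -0.09, -0.12 and -0.07, none of which passed (edgeR adjusted p of 0.593, 0.505 and 0.728).

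Of the older subfamilies, B1F2 was lowest, at a log2 fold change of -0.13 ± 0.08 (SE; edgeR adjusted p = 0.413). B1F2 averaged 916 ± 55.6 normalized CPM in KO and 1001 ± 38.5 in WT cells (SD, n = 3 each). B1F averaged 1492 ± 92.1 in KO and 1556 ± 59.7 in WT cells, and B1F1 averaged 1164 ± 77.8 in KO and 1256 ± 44.6 in WT cells. In each of the 3 rows the libraries of the genotypes overlapped.

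The proto-B1 rows had the median log2 fold change nearest to 0, -0.05, beside -0.15 for the young, -0.10 for the murid and -0.11 for the B1F rows. Single rows ran from -0.10 to -0.03 in the proto-B1 set and from -0.13 to -0.06 in the B1F set, so these overlapped. The murid rows ran from -0.15 to -0.07 and the young from -0.15 to -0.13. The proto-B1 and young sets include PB1D9 and B1_Mus2, whose values were unsteady (below), and no difference between sets was tested. PB1D10, which took the most counts of the family in 4 of 6 libraries (PB1D9 took more in KO replicate 1 and WT replicate 2), stood at 4117, 3861 and 3632 normalized CPM in KO replicates 1, 2 and 3, against 3964, 4285 and 4153 in WT replicates 1, 2 and 3. KO replicate 1 lay above WT replicate 1, and its log2 fold change, -0.10, missed the threshold (edgeR adjusted p = 0.668). PB1D7 stood at 1834, 1701 and 1586 in KO replicates 1, 2 and 3, against 1666, 1778 and 1775 in WT replicates 1, 2 and 3. KO replicate 1 was the highest of the 6 libraries, and the log2 fold change of -0.03 had a 95% interval of -0.24 to 0.18. PB1 and PB1D11 had log2 fold changes of -0.05 and -0.09, and FAM one of -0.10. Over the 14 rows other than B1_Mus2 and PB1D9, the 95% intervals of the KO over WT ratio reached from 0.767 at the lowest to 1.14 at the highest.

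**Figure D2:**
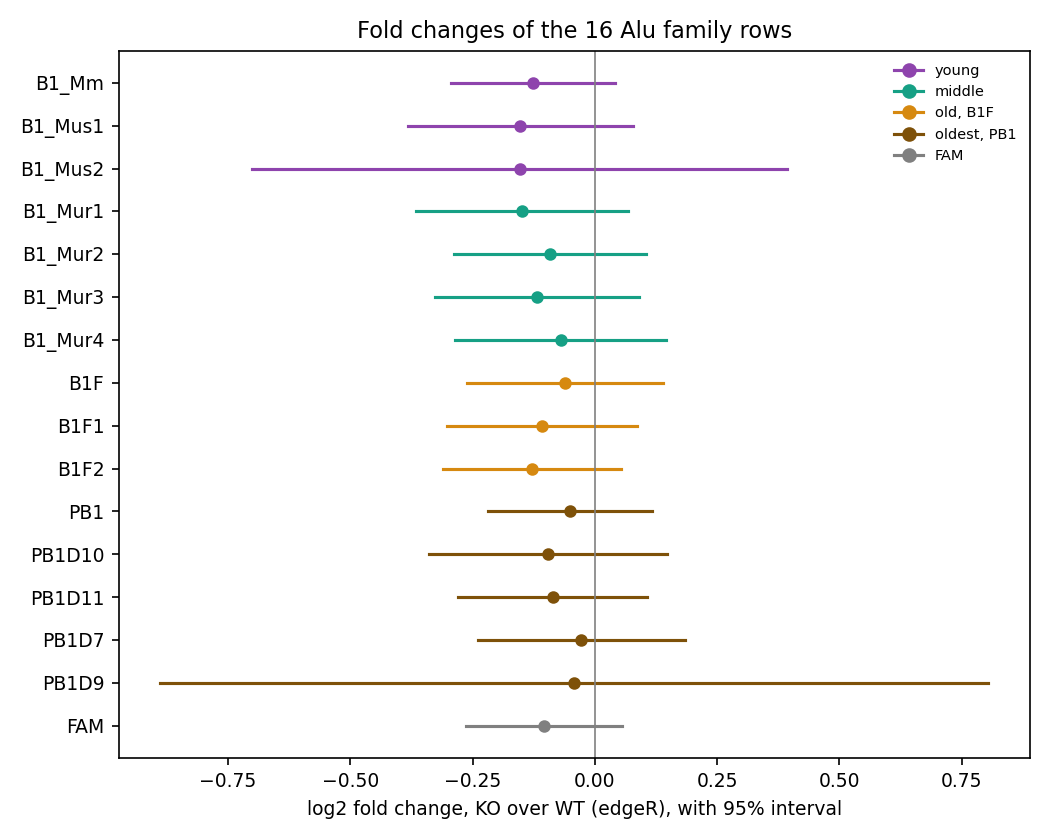
Points are log2 fold changes of KO over WT from edgeR and lines their 95% intervals, with rows ordered from young to old and coloured by age set. All 16 points lie below 0, between -0.15 and -0.03, all 16 intervals include 0, and the intervals of B1_Mus2 and PB1D9 are the widest.

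A pair of rows, B1_Mus2 and PB1D9, varied between libraries of the same genotype far more than the other 14. PB1D9 stood at 5203, 2279 and 3161 normalized CPM in KO replicates 1, 2 and 3, against 2180, 5349 and 3427 in WT replicates 1, 2 and 3. Its highest levels were in KO replicate 1 and WT replicate 2, the libraries with 84.8% and 84.1% rRNA. Its lowest were in KO replicate 2 and WT replicate 1, those with 52.9% and 32.4% rRNA. B1_Mus2 went the same way, at 3487, 2152 and 2408 in KO replicates 1, 2 and 3, against 2269, 3913 and 2771 in WT replicates 1, 2 and 3. The highest library exceeded the lowest 2.45-fold for PB1D9 and 1.82-fold for B1_Mus2, while no other row of the family passed 1.24-fold. In raw counts PB1D9 ranged only from 41134 to 52534, while PB1D10 ranged from 32946 to 95524. Why the level of these rows moved with rRNA was not tested.

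The genotype comparison of both rows depended on which libraries were used. Their log2 fold changes were -0.15 ± 0.24 (SE) for B1_Mus2 and -0.04 ± 0.37 for PB1D9 (edgeR adjusted p of 0.765 and 0.964). With the rRNA level of each library as a covariate they were -0.26 and -0.23, and neither passed (edgeR adjusted p of 0.150 and 0.256). Without WT replicate 2, the WT library highest in rRNA, both changed sign, to 0.09 for B1_Mus2 and 0.34 for PB1D9. The young set and the oldest set each hold 1 of these rows.

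**Figure D3:**
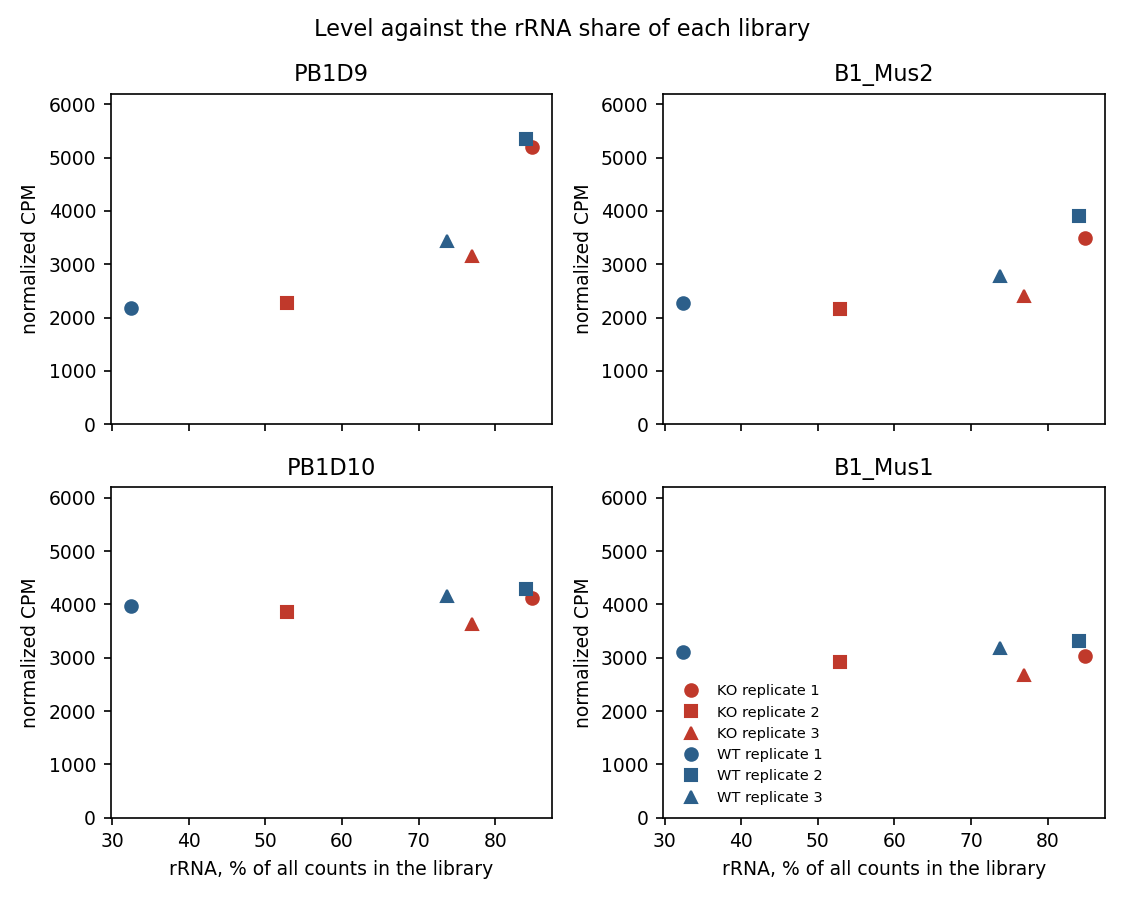
Each panel plots the normalized CPM of 1 row against the rRNA share of the library, with 1 point per library and a vertical axis starting at 0. PB1D9 and B1_Mus2 are highest in the 2 libraries above 84% rRNA, whereas PB1D10 and B1_Mus1 stay within a narrow band at every rRNA share.

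Summed over its 16 rows, the family showed no difference between the genotypes that passed the test. The sum was 31877, 26363 and 26118 normalized CPM in KO replicates 1, 2 and 3, against 27010, 33617 and 29754 in WT replicates 1, 2 and 3. The groups overlapped, and KO replicate 1 and WT replicate 2, both rich in rRNA, were highest. Its log2 fold change was -0.10 ± 0.21 (SE; edgeR adjusted p over 58 families = 0.813), and the 95% interval of the KO over WT ratio was 0.684 to 1.27. At an adjusted p under 0.05, 10.3% of the 58 families passed. Leaving B1_Mus2 and PB1D9 out of the sum, a choice made after their levels were seen, kept the log2 fold change at -0.10 and narrowed the interval of the ratio to 0.733 to 1.18. Those 2 rows held 27.3%, 16.8% and 21.3% of the family's counts in KO replicates 1, 2 and 3, and 16.5%, 27.6% and 20.8% in WT replicates 1, 2 and 3.

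B1 took nearly the same part of SINE counts on average in both genotypes. Its share of all SINE counts was 33.0%, 36.8% and 34.4% in KO replicates 1, 2 and 3, against 36.7%, 32.9% and 35.1% in WT replicates 1, 2 and 3. The share averaged 34.7% ± 1.94 in KO and 34.9% ± 1.88 in WT cells (SD, n = 3 each), a difference far under the spread. The exact (Clopper-Pearson) 95% binomial interval in WT replicate 2, the library with the fewest SINE counts, was 32.8% to 33.0%, which covers counting error only. The libraries highest in rRNA had the lowest B1 shares. Other SINE rows counted in the whole also moved with rRNA. The log2 levels of B4, B3 and B3A correlated at 0.96, 0.85 and 0.77 with the log2 ratio of rRNA to other counts. B4 ranged 4.49-fold between libraries. Whether these rows account for the lower shares was not tested.

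The balance of young against old B1 does not depend on how libraries are scaled, since both counts come from the same library. The young rows stood at 0.451, 0.465 and 0.456 of the summed old rows (B1F and PB1 names) in KO replicates 1, 2 and 3, against 0.488, 0.487 and 0.470 in WT replicates 1, 2 and 3. All KO libraries lay below all WT libraries, with KO replicate 2 and WT replicate 3 nearest to each other. On the log2 scale the ratio averaged -1.13 ± 0.02 in KO and -1.05 ± 0.03 in WT cells (SD, n = 3 each), a difference of -0.08. That difference is larger than the SD of either genotype but amounts to only a few percent. As a value built on the members it was given no test. Among ratios between pairs of single tested rows, 27.8% also did not overlap (described below).

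The offset was also seen without the pair of rows that moved with rRNA. Then B1_Mm and B1_Mus1 together stood at 0.351, 0.363 and 0.359 of the old rows in KO replicates 1, 2 and 3, against 0.377, 0.376 and 0.368 in WT replicates 1, 2 and 3. The groups again did not overlap, and the difference of the log2 ratio was -0.06. With each row weighted equally it was -0.07, also without overlap. With the B1_Mur rows counted among the old it was -0.06, and the groups overlapped. B1_Mm alone over the PB1 rows gave -0.06 with overlapping groups, and without PB1D9 it gave -0.05, still overlapping. The young rows gave -0.04 over the murid rows and -0.05 over the B1F rows, both with overlap. Without B1_Mus2 the young rows over the B1F rows gave -0.05 without overlap. The murid rows over the old rows gave -0.04 with overlap, and -0.03 without overlap once PB1D9 was left out. Leaving out B1_Mus2 or PB1D9 was a choice made after their levels were seen. Only with PB1D9 left out did the murid rows also show an offset without overlap.

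**Figure D4:**
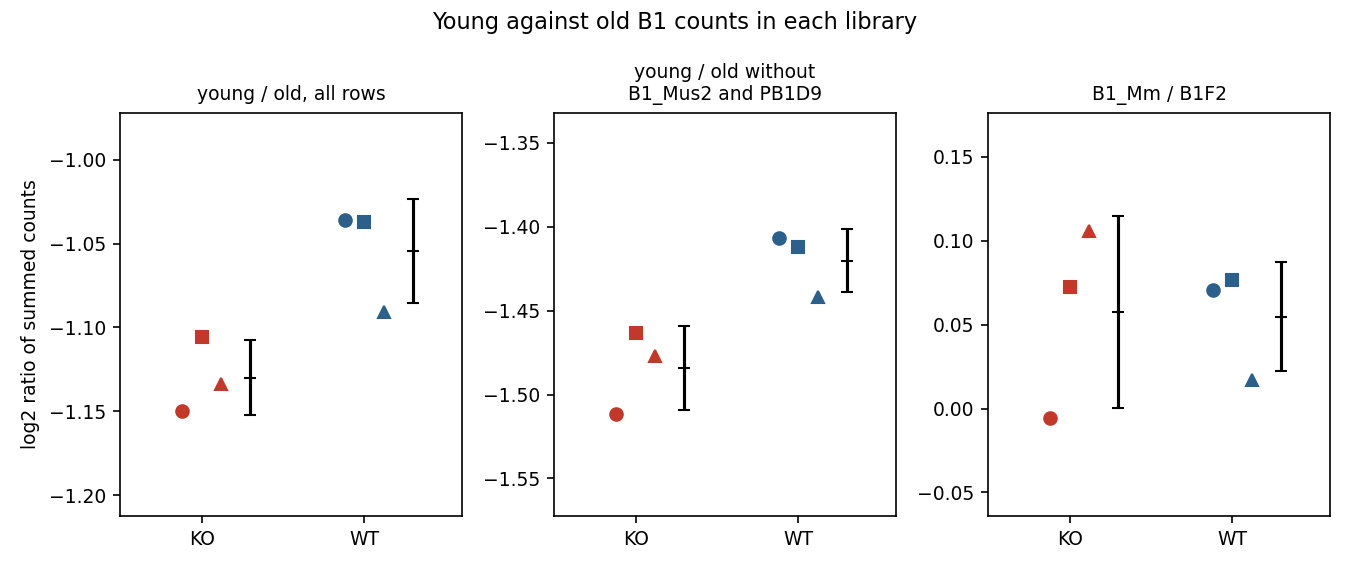
Points are the log2 ratio of summed counts in each library, with KO left of WT, and bars are the mean ± SD of 3 libraries; the vertical axes span the same range around different centres. In the first and middle panels all KO points lie below all WT points, and in the B1_Mm over B1F2 panel the groups overlap.

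The offset was seen in more ratios of B1_Mus1 than of B1_Mm. Each of B1_Mm and B1_Mus1 was set against each of the 7 old rows other than PB1D9, giving 14 ratios that share rows. For B1_Mus1 all 7 ratios were lower in KO, by 0.02 to 0.12 on the log2 scale, and in 6 of 7 the groups did not overlap. For B1_Mm 6 of 7 were lower and in 1 of 7 the groups did not overlap, the widest difference being -0.10, against PB1D7. Against B1F2, the B1_Mm log2 ratio averaged 0.06 ± 0.06 in KO and 0.05 ± 0.03 in WT cells. In all, 7 of 14 ratios did not overlap, beside 27.8% of ratios between all pairs of tested rows with counts in every library. That share leaves out rows whose level rose with rRNA but keeps rows that fell as rRNA rose. Those pairs include rows with far fewer counts than the B1 rows, so the comparison is not matched for depth.

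Each of the 14 rows was also read as a share of their summed counts, without a test. By this measure 7 of 14 rows did not overlap between genotypes, beside 28.8% of rows in other families of at least 10 tested rows. Those rows were counted in the same way, again without rows that rose with rRNA. These other families also include rows with far fewer counts, so depth is not matched here either. B1_Mus1 took 13.1%, 13.3% and 13.0% in KO replicates 1, 2 and 3, against 13.8%, 13.6% and 13.5% in WT replicates 1, 2 and 3. B1_Mur1 took 9.57%, 9.53% and 9.56% in KO replicates 1, 2 and 3, against 9.83%, 9.92% and 9.85% in WT replicates 1, 2 and 3. In both rows every KO share was below every WT share, as it was in B1F2, an old row.

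In 4 rows every KO share was above every WT share. PB1D7 took 7.91%, 7.76% and 7.72% in KO replicates 1, 2 and 3, against 7.39%, 7.30% and 7.53% in WT replicates 1, 2 and 3, the widest upward difference. B1F took 6.87%, 6.71% and 6.87% in KO replicates 1, 2 and 3, against 6.62%, 6.62% and 6.64% in WT replicates 1, 2 and 3. The others were PB1 and B1_Mur4, the last a murid row of middle age. Shares sum to a fixed total, so a row can gain because another lost, and the 14 rows were set after B1_Mus2 and PB1D9 were seen to vary.

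Relatives of B1 and other products of RNA polymerase III were read beside it. The row of 7SL RNA, the parent of B1, stood at 16150, 16445 and 19203 normalized CPM in KO replicates 1, 2 and 3, against 21007, 20433 and 24078 in WT replicates 1, 2 and 3. Every KO library was below every WT library, but its log2 fold change, -0.34 ± 0.16 (SE), missed the threshold (edgeR adjusted p = 0.278). 4.5S RNA, a small rodent RNA related to B1, averaged 183 ± 8.14 in KO and 206 ± 5.14 in WT cells, and did not pass either (edgeR adjusted p = 0.130). ID_B1, a B4 row that joins an ID element to a B1 unit, lay at -0.19 on the same log2 scale (edgeR adjusted p = 0.499).

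Of 47 tested rows of RNA polymerase III products (tRNAs, 7SL, 7SK, U6, 5S, 4.5S, BC1 and Y RNAs), 13 fell and 0 rose in edgeR (3.6% of all rows fell), and their median log2 fold change was -0.67. The B1 median of -0.10 was nearer to 0 than that of this list, and 0 of 16 B1 rows fell. Most rows of the list were tRNAs, and some others lay nearer to the B1 median. 7SK and 4.5S RNA were both at -0.17, BC1 at -0.26 and 7SL RNA at -0.34. The Y RNA rows HY1 and HY3 were at -0.64 and -0.25, and 5S at 0.44. None of these rows with a value given passed in edgeR, and U6, also in the list, is not given singly. Among the other SINE families, 1 of 5 B2 rows fell, B2_Mm1a, whose log2 fold change was -0.62 with an edgeR adjusted p of 0.00429. The B2 median was -0.26. In 3 of 5 B2 rows the edgeR unadjusted p was under 0.05, beside 20.9% of all rows. In the same 3 rows every KO library lay below every WT library, beside 13.4% of all rows. In edgeR 0 of 4 B4, 0 of 3 ID and 0 of 5 MIR rows passed, with 0 in each at an unadjusted p under 0.05, and their medians were -0.06, -0.08 and -0.02. Whether B1 differs from these lists was not tested.

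The rows outside the family whose level followed the B1 sum most closely were old DNA transposons and an ERVL element. Over the 6 libraries and 1170 rows compared, the log2 levels of Tigger17a, Charlie15a, MER99, MER2 and MER68 had Pearson correlations of 0.985, 0.975, 0.971, 0.965 and 0.961 with that of the summed family. These are descriptions that share libraries and scaling, and the highest of many. Without B1_Mus2 and PB1D9 the closest rows were URR1B, ID2, ORR1B1-int, MT2B and RSINE1, at 0.997, 0.993, 0.992, 0.990 and 0.986. ID2 and RSINE1 are SINEs, and 0 of these 10 rows passed in edgeR or at an unadjusted p under 0.05.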

How the data were processed

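Repeat RNA was measured by RNA sequencing of 6 libraries, 3 KO and 3 WT, grouped and numbered by their titles. FastQC 0.11.5, Trimmomatic and Bowtie2 and the builds mm10 and GRCm38 are named in the submitters' processing notes. The sources used here state neither the counter, the repeat annotation nor the use of strand. The authors deposited, per repeat row, estimated counts that the file names call fractional, without normalization. All were whole numbers already, so rounding changed nothing.

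All rows entered edgeR 4.0.16 under R 4.3.3: filterByExpr kept 1193 of 1336 rows, TMM set the effective library sizes, and the quasi-likelihood test of KO against WT was adjusted over all rows by Benjamini-Hochberg. Family sums with a mean of at least 10 counts, 58 of 65, were tested with the same library sizes. Standard errors and 95% intervals came from the test statistic. DESeq2 1.42.0, limma 3.58.1 (voom), other scalings, filters and sets of libraries, a replicate block and an rRNA covariate were alternatives. The procedure was tested on simulated data. Every Alu row was named, besides the related rows, lists and 5 closest rows set out in the design. For the ratios and shares, 51 rows were counted as rising with rRNA. Their log2 level correlated above 0.75 with the log2 ratio of rRNA to other counts. This limit was set after seeing the data, and rows with a negative correlation were not left out. The members and lists were chosen with earlier results of these data known. Depth was 258491 to 650944 counts of the family per library.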

Additional observations from a re-analysis of the deposited data

How the results depend on the processing

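No member passed the adjusted threshold in any of 16 alternatives, 4 fits of which had members at an unadjusted p under 0.05 (5 with the rRNA covariate, 4 with limma-voom, 2 with DESeq2 and 1 without WT replicate 1, beside 24.7%, 21.9%, 17.4% and 21.6% of all rows in the same fits). Of 256 member values under these alternatives, 251 kept their direction. The 5 others, none of them past the threshold, came from leaving out 1 library. For PB1D9 the values ran from -0.43 without KO replicate 1 to 0.34 without WT replicate 2, with 0.19 and 0.03 without KO replicates 2 and 3. For B1_Mus2 they ran from -0.39 without KO replicate 1 to 0.088 without WT replicate 2, and for PB1D7 from -0.087 without KO replicate 1 to 0.019 without KO replicate 3. Scaled by total counts the median of the 16 rows moved to -0.44. Leaving out each library gave -0.15 to -0.06 for that median and -0.20 to -0.02 for the log2 fold change of the family sum. It gave -0.09 to -0.07 for the log2 ratio of young to old rows and -1.17 to 0.76 percentage points for the difference in the B1 share of SINE counts, whose sign therefore depends on the library left out. With the replicate block the family sum was at -0.10 and 0 members passed. The deviations of KO and WT libraries with equal numbers correlated at -0.55, -0.50 and 0.04. No label ties a number to a litter or batch, so whether equal numbers share one is not known. These correlations cannot show it, since the libraries also differ in rRNA. The count of all rows called, 69, was 92 with the rRNA covariate, 24 with the replicate block, 41 without structural RNA, 0 when scaled by total counts, 9 without both KO replicate 2 and WT replicate 1, and 22 to 69 with single libraries left out. For a row such as B1_Mm, with counts of 7898 to 24211 per library, depth was not the limit. Its SE of 0.07 comes from a fit that draws on the spread between libraries over all rows, besides its own.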
